A study of Homo sapiens with 7 samples.

Results

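Stop codon peaks in exons under 1000 nt are sites of N6-methyladenosine (m6A) mapped near the end of the coding sequence in transcripts whose stop codon region lies in a comparatively short exon. They were chosen from the authors' list of m6A peaks as those that the authors placed around the stop codon and whose exon was listed with a length under 1000 nt. The rule found 1140 peaks, which was 33.2% of the 3432 stop codon peaks (95% Wilson interval 31.7 to 34.8%) and 8.93% of all 12769 peaks (8.45 to 9.43%). They lay in 1113 transcripts of 1111 gene symbols, all of them coding. The other 2292 stop codon peaks, in exons of 1000 nt and over, served as the comparison and are called long-exon peaks below. The series held 7 libraries of untreated HepG2 cells, a human hepatocellular carcinoma line in culture, with 4 immunoprecipitated by an anti-m6A antibody and 3 inputs. Its deposited table gives 1 value per transcript or peak. The headers name the cell line and no library, so the libraries behind each value are not stated. Values per library, depth per library and replicate error could therefore not be given, and every interval below covers counting error over peaks or transcripts, which are not replicates.

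m6A is written on messenger RNA by a methyltransferase complex built on METTL3 and METTL14, removed by the demethylases FTO and ALKBH5, and bound by reader proteins of the YTH family. The complex recognises a short consensus, RRACH, whose central A is methylated, where R stands for either purine and H for any base but G. The mark is known for gathering near stop codons and in long exons. Most human transcripts carry the stop codon in their last exon, which also holds the 3' UTR and is usually the longest exon of the transcript.

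The cells' label was checked against liver genes first. Of 14 liver markers, 8 were listed at the lowest expression quantile of the table, 0.314, among them the plasma proteins ALB, AFP, TTR, APOA2 and APOB. The expression quantile is the authors' rank of a transcript's mean expression as a fraction from 0 to 1. The highest of the 14, the fibrinogen chain FGB, stood at 0.619, and none of the 14 had a peak. MSLN, the surface protein mesothelin and no liver marker, stood at 0.968 and carried short-exon stop codon peaks with scores of 2.42 and 4.09. Of the other epithelial markers listed with it, MUC16 stood at 0.667 with 14 peaks, and PAX8 (0.496) and WT1 (0.333) had no peak. The liver markers' values go against the label, and the cells are named here only as labelled.

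Sequences are printed from the highest-scoring members that were matched to the GENCODE 29 annotation. Only members with RRACH within 50 nt of the listed peak position were eligible, so its presence was fixed by the choice. Each sequence is the 25 nt of transcript, 5' to 3', around the consensus nearest to the peak, with that pentamer in capitals. Every printed peak had further RRACH pentamers within 50 nt, and which base was methylated is not known. Coordinates are GRCh38 with the strand.
HTRA1, chr10:122514431-122514455, plus strand: ugcuggaauaGGACAcucaagacuu
NAT10, chr11:34146252-34146276, plus strand: cucucuggcuGGACUguuaaaagca
FBXL15, chr10:102423009-102423033, plus strand: gagcacagcuGGACUguguggcugg
ORC6L, chr16:46697604-46697628, plus strand: uauacauuccAAACUgauaguacau
UBAC1, chr9:135933305-135933329, minus strand: ccucaccuggAAACUcaccuucagc
TCFL5, chr20:62841932-62841956, minus strand: cucgggggguGAACAgccauuccuu
E4F1, chr16:2235605-2235629, plus strand: acagggcagaGGACUcugagcgccc
ZNF821, chr16:71859843-71859867, minus strand: uugcauauggGAACAggaugauggg
DNAH2, chr17:7833576-7833600, plus strand: ccaggagcuaAGACAgauguugcac
XPO6, chr16:28098507-28098531, minus strand: uacugccuggGGACAcggacuucug
WDR85 (now DPH7), chr9:137555318-137555342, minus strand: acuguggcguGAACCcagaagaagc

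All of these peaks lay in the last exon. The peak of HTRA1, a secreted serine protease, scored 5.27 and lay 78 nt downstream of the last coding base and 244 nt from the upstream exon junction, in an exon of 718 nt. That of NAT10, the RNA cytidine acetyltransferase, scored 5.18 and lay 73 nt downstream of the last coding base, 179 nt from the junction. FBXL15, a substrate adaptor of a ubiquitin ligase, had its peak 43 nt downstream (score 5.15) in an exon of only 333 nt. ORC6L (now ORC6), a subunit of the origin recognition complex, had its peak 46 nt downstream with a score of 4.98. The peak of TCFL5, a basic helix-loop-helix transcription factor, scored 4.88 and lay 37 nt downstream. The axonemal dynein heavy chain DNAH2, at an expression quantile of only 0.557, had its peak 58 nt downstream (score 4.52) in exon 85, of 362 nt. In XPO6, an export receptor of actin, the peak (4.50) was 10 nt downstream of the last coding base and 109 nt from the junction, the nearest of those printed, and in ZNF821 (4.57) it was 806 nt from the junction, the farthest. The peaks of UBAC1 (4.95) and E4F1 (4.58) lay 92 nt and 47 nt downstream. WDR85, which acts in diphthamide synthesis, was the exception among those printed, with its peak 98 nt upstream of the last coding base (score 4.50). GGACU was the capitalised pentamer in NAT10, FBXL15 and E4F1. GGACA (HTRA1 and XPO6), AAACU (ORC6L and UBAC1) and GAACA (TCFL5 and ZNF821) were capitalised in 2 of the printed genes each. DNAH2 had AGACA and WDR85 had GAACC. The XPO6 stretch also held GGACU and that of HTRA1 also held AGACU, each farther from the peak than the capitalised pentamer.

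The members' exons ran from 87 to 998 nt, with a median of 607 nt (95% interval of the median 588 to 634). Only 32 of the 1140 peaks lay in exons under 200 nt, against 195 from 200 to under 400 nt, 329 from 400 to under 600 nt, 303 from 600 to under 800 nt and 281 from 800 to under 1000 nt. The shortest exons included those of CTNND1, the cadherin-binding p120 catenin (87 nt, score 2.20), GOLGA2L1 (92 nt, 2.19), KLC3, a kinesin light chain (107 nt, 2.31), and SERF2 (109 nt, 3.59). GOLGA2L1 resembles the golgin gene GOLGA2, and reads of such copies may have been shared. The limit cut through a continuous distribution. Just inside it were IER3 (998 nt, score 3.05), the cysteine desulfurase NFS1 (997 nt, 4.40) and UFSP1 (996 nt, 2.39), and just outside, at 1000 nt each, PEBP1 (2.08), the proteasome subunit PSMD7 (2.76) and PKP4 (5.28).

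**Figure D1:**
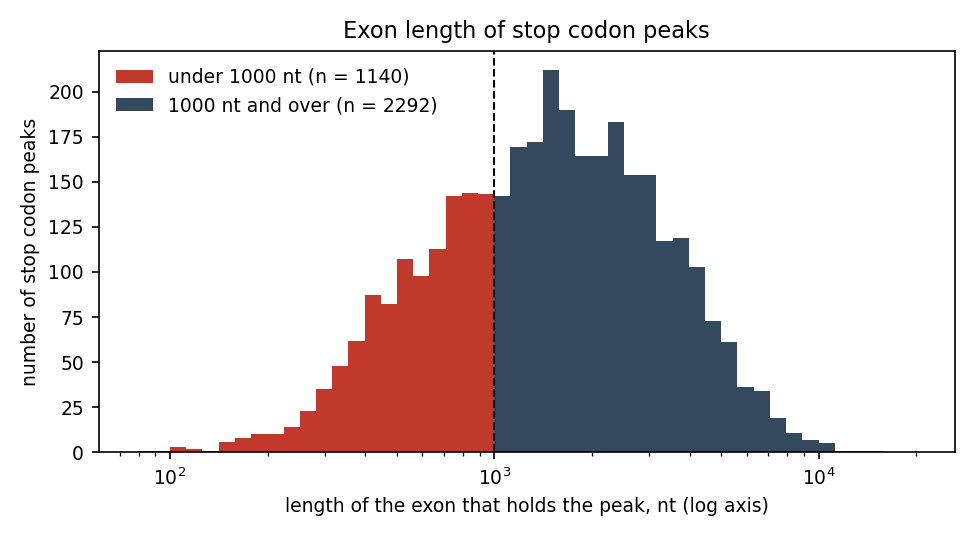
Number of stop codon peaks (vertical axis) by the length of the exon that holds them (horizontal axis, log scale, nt), for the 1140 peaks in exons under 1000 nt and the 2292 in longer exons. The dashed line marks the limit of 1000 nt, and the counts run across it without a gap.

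Few members lay in the first exon. Only 7 peaks (0.614%, 95% interval 0.298 to 1.26%) were listed in exon 1, against 101 long-exon peaks (4.41%), a difference of -3.79 points (Newcombe's 95% interval -4.76 to -2.79). These 7 were in C19orf24, LOC285398, CFL1 (the actin-severing protein cofilin), CDKN1B (the cyclin-dependent kinase inhibitor p27), C19orf23, UFSP1 and a transcript listed as NR_002797. Where the stop codon lies in exon 1, the coding sequence before it lies in that exon too. The limit on exon length thus leaves less room for such members, and the part of this in the difference was not tested. The members' median exon number was 10, against 9 for the long-exon peaks.

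The 15 highest-scoring members ran from 7.63 to 6.37 on the authors' score, whose scale is not stated. Coordinates of genes are those of the table, whose build is not given in the sources used here, with starts counted from 1. MICALL2 led (7.63, exon 17 of 314 nt, chromosome 7, 1440521 to 1465635, minus strand), with this peak as its only one. PDCD11, which acts in ribosomal RNA processing, followed at 7.43 in exon 36 of 885 nt. IL6ST, the signal-transducing receptor chain gp130, had 7.33, and PDE7A, a cAMP phosphodiesterase, had 7.28 in an exon of 418 nt. C1orf77, now CHTOP, a factor of mRNA export, scored 7.26 (chromosome 1, 151873149 to 151884603, plus strand, exon 6 of 440 nt). The giant ubiquitin ligase HERC2 scored 6.97 at position 14698 of its transcript, in exon 93 of 994 nt. HOXC11, a homeobox transcription factor, scored 6.83 and MCM2, a subunit of the replicative helicase, 6.80. The kinase RPS6KA1, which acts downstream of ERK, scored 6.75 and the GTP-binding protein DRG1 6.70, the latter in exon 9 of 315 nt. DERL2, a component of endoplasmic reticulum-associated degradation, had 6.58, and EIF2C2, now AGO2, the slicing Argonaute protein, 6.55. PLEKHH3 (6.45), the N-glycan branching enzyme MGAT5 (6.43, exon 16 of 249 nt) and the metallopeptidase LMLN (6.37) completed the 15. Of these genes, 10 carried the stop codon peak alone.

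Across all members the score was slightly below that of the long-exon peaks. The median was 3.32 (95% interval 3.22 to 3.38) against 3.51 (3.46 to 3.59), a difference of -0.196 (-0.317 to -0.114). Scores above 3.15, the median of all peaks, were held by 628 members (55.1%) and by 61.6% of long-exon peaks, a difference of -6.52 points (-10.02 to -3.02). Scores of 5 and over were held by 98 members (8.60%) and 280 long-exon peaks (12.2%), a difference of -3.62 points (-5.67 to -1.44). The limit of 1000 nt did not mark a step. The median was 2.71 in exons under 200 nt (2.34 to 3.56, n = 32), 3.19 from 200 to under 400 nt and between 3.32 and 3.45 in the 3 classes from 400 to under 1000 nt. It was 3.27 from 1000 to under 2000 nt (3.17 to 3.40, n = 1051), 3.62 from 2000 to under 4000 nt and 3.97 from 4000 nt (3.80 to 4.12, n = 345). The members' median thus lay close to that of exons of 1000 to under 2000 nt, and the higher scores stood in exons of 2000 nt and over.

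Members lay in more strongly expressed transcripts. Their median expression quantile was 0.872 (0.863 to 0.879) against 0.775 (0.767 to 0.785) for the long-exon peaks, a difference of 0.0975 (0.0839 to 0.107). Quantiles above 0.9 were held by 39.3% of members and 17.1% of long-exon peaks. Members made up 12.6% of stop codon peaks below a quantile of 0.6, 25.9% from 0.7 to under 0.8, 47.4% from 0.9 to under 0.95 and 60.6% from 0.95 (55.6 to 65.4%). Short stop codon exons were themselves commoner at high expression. Among the annotated transcripts counted below, with or without a peak, 213 had a short one and 324 a longer one at quantiles of 0.5 to under 0.7. At 0.9 and over the counts were 157 and 89. The part of this in the members' shares was not tested. Within each of 6 bins of expression the interval of the score difference included 0, with differences from -0.220 (-0.536 to 0.0644) at 0.95 and over to 0.0538 (-0.455 to 0.543) below 0.6. It was negative in 5 of the 6 bins, which hold fewer peaks than the whole and so have wider intervals. Over all stop codon peaks above a quantile of 0.9 the score difference was -0.240 (-0.424 to -0.00153). Among transcripts with 1 peak in all it was -0.268 (-0.444 to -0.0853).

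**Figure D2:**
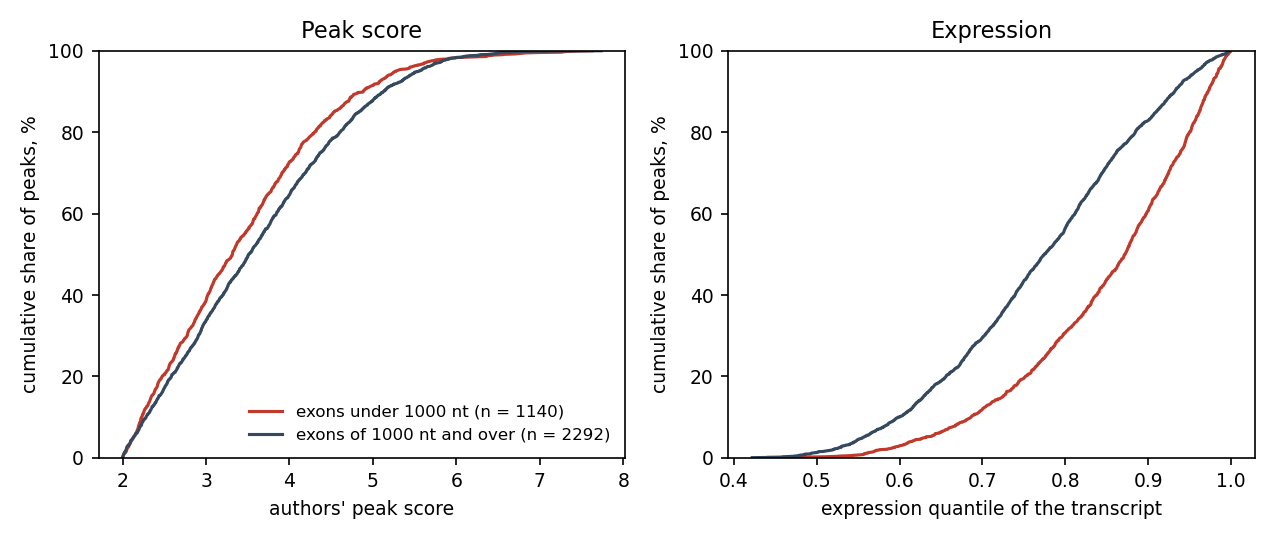
Cumulative share of peaks (vertical axes, %) by the authors' peak score (left) and by the expression quantile of the transcript (right), for stop codon peaks in exons under 1000 nt (n = 1140) and in longer exons (n = 2292). The medians are 3.32 and 3.51 for the score and 0.872 and 0.775 for the quantile, so the curves lie closer together on the left than on the right.

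To give the members a denominator, 1849 coding transcripts above the lowest expression value were matched to GENCODE 29 by symbol and exact genomic span, and the length of the exon with the stop codon was read from the annotation. A stop codon peak was present in 128 of 877 transcripts whose stop codon exon was under 1000 nt (14.6%, 12.4 to 17.1%). It was present in 252 of 972 with a longer one (25.9%, 23.3 to 28.8%), a difference of -11.3 points (-14.9 to -7.69). By length the share was 9.71% under 200 nt, 9.63% from 200 to under 400 nt, 15.9% from 400 to under 600 nt and 20.2% from 600 to under 1000 nt. It was 22.4% from 1000 to under 2000 nt, 28.3% to under 4000 nt and 30.9% in longer exons. Within expression classes the shares for short and long exons were 7.98% and 24.4% at quantiles of 0.5 to under 0.7, and 24.0% and 48.0% at 0.7 to under 0.9. At 0.9 and over they were 30.6% (23.9 to 38.2%) and 39.3% (29.8 to 49.7%), where the interval of the difference, -21.1 to 3.42 points around -8.75, included 0.

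**Figure D3:**
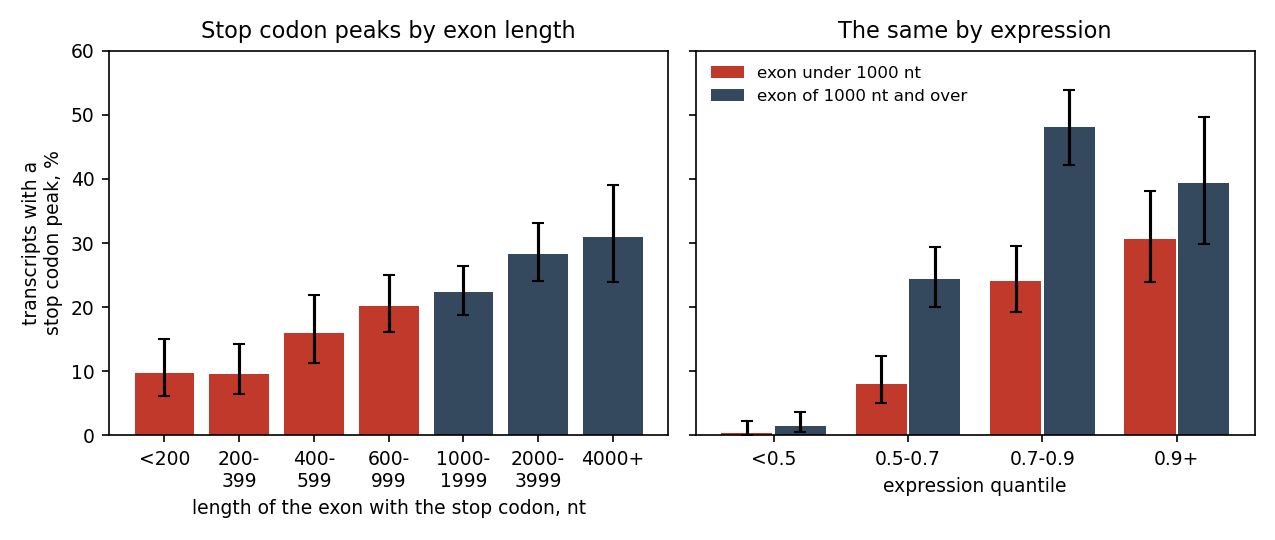
Share of matched coding transcripts with a stop codon peak (vertical axes, %, bars from 0 with 95% Wilson intervals) by the length of the exon that holds the stop codon (left) and, for exons under and over the limit, by expression quantile (right). The share is 9.71% in the shortest class and 30.9% in the longest, and the bars of the 2 exon groups are nearest in relative size at quantiles of 0.9 and over.

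In most of their transcripts the members were the only peak. This held for 685 of 1113 transcripts (61.5%) and for 777 of 2203 with a long-exon stop codon peak (35.3%), a difference of 26.3 points (22.7 to 29.7). The median length of the matched transcripts was 2099 nt and 4347.5 nt. The members' transcripts carried 542 other peaks, in 415 transcripts. Of these, 227 lay in the coding sequence (41.9%), 190 at the transcript start (35.1%, 31.2 to 39.2%), 97 in the 3' UTR (17.9%, 14.9 to 21.3%) and 26 in the 5' UTR. Among the other peaks of long-exon transcripts, 9.74% lay at the transcript start (8.67 to 10.9%) and 35.0% in the 3' UTR (33.2 to 36.9%). The limit on exon length also bounds the 3' UTR of members in the last exon, which leaves less room for 3' UTR peaks. The part of this, of transcript length and of expression in these shares was not tested. Where another peak existed, the member scored highest in 250 of 415 transcripts (60.2%, 55.5 to 64.8%), against 708 of 1389 (51.0%, 48.3 to 53.6%) for long exons. The number of rivals differed, with 542 other peaks in the 415 transcripts and 2628 in the 1389. More rivals make a top score less likely, and the part of this in these shares was not tested. The member was above the top coding sequence peak in 97 of 165 transcripts (58.8%, long exons 50.8%) and above the top 3' UTR peak in 56 of 95 (58.9%, long exons 53.7%). It was above the top start peak in 129 of 189 (68.3%, 61.3 to 74.5%), against 190 of 256 (74.2%, 68.5 to 79.2%) for long exons.

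A pair of members was listed in 27 transcripts, a median of 200 nt apart (range 85 to 351 nt). The 6 pairs with the highest summed score were in RTKN (4.14 at position 1635 and 5.64 at position 1986), ATF6, a sensor of the unfolded protein response (2.61 and 4.88), and BAI2, an adhesion receptor (3.03 and 4.41). The others were FAM38A, now PIEZO1, a mechanosensitive channel (2.32 and 5.06), UXS1, which makes UDP-xylose (2.89 and 4.34), and the helicase DDX10 (4.12 and 2.85). The downstream peak had the higher score in all of these but DDX10. These 6 were picked by score, and the order was not counted over all 27 pairs. Such pairs share a transcript and are not independent.

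For positions and sequences, 95 members in 93 transcripts were matched to GENCODE 29 by symbol, exact span and exon number and length, with 220 long-exon peaks in 212 transcripts. The matched members had a median score of 3.01 (2.69 to 3.35), exon length of 645 nt and quantile of 0.881, so their score was somewhat lower than that of all members. Of the 95, 92 lay in the last exon (96.8%, 91.1 to 98.9%), as did all 220 long-exon peaks. The exceptions included PCID2 (exon 14 of 15, 114 nt) and DOT1L, the methyltransferase of histone H3 lysine 79 (exon 27 of 28, 945 nt). Only 3 of the 95 lay over 200 nt from the annotated stop codon.

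Members lay downstream of the stop codon more often than long-exon peaks. Distances from the stop codon were counted from the last coding base, so downstream takes in the bases of the stop codon itself. The median position was 58 nt downstream of the last coding base (37 to 92), against 3.5 nt (-13 to 18), a difference of 54.5 nt (28.98 to 92.3). In all, 70 of 95 members (73.7%, 64.0 to 81.5%) and 113 of 220 long-exon peaks (51.4%, 44.8 to 57.9%) lay downstream, a difference of 22.3 points (10.7 to 32.5). From the upstream exon junction the medians were 253 nt (230 to 272) and 264 nt (241 to 294), a difference of -11 nt whose interval included 0 (-48.8 to 18.8). In the larger sets matched by span within 10 nt and within 200 nt, the difference was -31.5 nt (-88.6 to -0.0318) and -26.5 nt (-45.4 to -6.20), so the members lay nearer the junction there. The spread differed, with 77.7% of members (68.2 to 84.9%) and 55.0% of long-exon peaks (48.2 to 61.5%) at 100 to under 400 nt from the junction. The limit on exon length bounds how far a member can lie from the junction, and sets no such bound for long-exon peaks. The part of this in the spread and in the medians from the junction was not tested. Under 100 nt from it lay 6 of 94 members (6.38%) and 23 of 211 long-exon peaks (10.9%), a difference of -4.52 points (-10.5 to 3.19). The members' last exons held a median of 149.5 nt of coding sequence, against 249 nt, and their 3' UTRs were 376 nt long at the median, against 1884 nt. A last exon with the stop codon is made up of that coding sequence, the stop codon and the 3' UTR. The limit on exon length thus bounds these lengths in members by construction, and no conclusion is drawn from their differences.

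The share of peaks downstream of the stop codon was lower where the last exon held more coding sequence. In the 20 members with 1 to under 100 nt of it, all 20 peaks lay downstream of the stop codon, a median of 116 nt from it and 185 nt from the junction. With 100 to under 200 nt, 27 of 32 did (84.4%, median 75.5 nt from the stop codon, 230.5 nt from the junction), and with 200 to under 400 nt, 15 of 24 (62.5%, 27 nt and 306.5 nt). With 400 nt and over, 4 of 12 lay downstream (33.3%) and the median was -91.5 nt from the stop codon. Spearman's rank correlation between distance from the stop codon and coding length was -0.53 over 91 last-exon members and -0.45 over 211 long-exon peaks. These points share a bound, since a peak of the last exon cannot lie further upstream than the junction. Both measures are also taken from the last coding base, with opposite signs. A negative value is thus favoured by construction, and no conclusion is drawn from it. Room was therefore computed, the share of last-exon positions within 200 nt of the stop codon, less 50 nt at the transcript end, that lay downstream. Members lay downstream in 75.8% of 91 cases (66.1 to 83.5%) where room averaged 57.6%, and long-exon peaks in 50.2% of 211 (43.5 to 56.9%) where it averaged 55.5%. The members' room fell along with their downstream share. It averaged 75.2% at 1 to under 100 nt, 54.9% at 100 to under 200 nt, 47.8% at 200 to under 400 nt and 44.8% from 400 nt. At the same coding length of 100 to under 200 nt, the shares were 84.4% and 63.6%, a difference of 20.7 points (0.968 to 36.6). At 1 to under 100 nt and at 200 to under 400 nt the differences were 16.7 points (-2.29 to 35.9) and 18.9 points (-4.87 to 39.3). At 400 nt and over both shares were 33.3%, a difference of 0 points (-22.5 to 29.2).

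**Figure D4:**
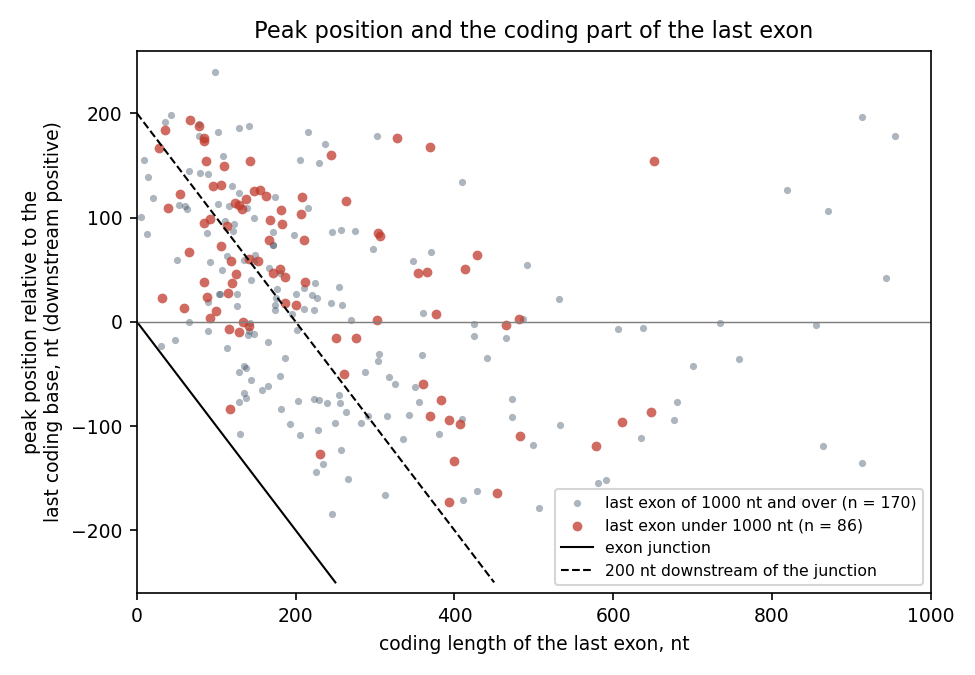
Peak position relative to the last coding base (vertical axis, nt, downstream positive) against the coding length of the last exon (horizontal axis, nt) for matched peaks of the last exon; 86 of 91 members and 170 of 211 long-exon peaks fall in the range shown (1 to 1000 nt of coding sequence and within 250 nt of the last coding base). The solid line is the exon junction and the dashed line a distance of 200 nt from it, and all 19 members shown with under 100 nt of coding sequence lie above 0.

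The consensus lay close to the peaks. RRACH, searched on the sense strand of the transcript as 12 pentamers with overlaps kept, occurred within 50 nt of 90 of 95 members (94.7%, 88.3 to 97.7%) and of 93.6% of long-exon peaks, a difference of 1.10 points (-5.85 to 6.12). Of all positions of the members' transcripts, 76.3% had RRACH within 50 nt, and of those within 200 nt of the stop codon, 83.1%. In 553 matched transcripts with a last exon under 1000 nt and no peak, 76.4% of positions within 200 nt of the stop codon did. By distance, 20 nt windows held 0.558 and 0.600 motifs per member around and just downstream of the peak, against 0.253 at 130 to 150 nt upstream.

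GGACU was the commonest pentamer near members. It lay within 50 nt of 41 of 95 members (43.2%, 33.7 to 53.2%) and of 67 of 220 long-exon peaks (30.5%, 24.8 to 36.8%), a difference of 12.7 points (1.26 to 24.2). Of all positions of the members' transcripts 13.1% had it within 50 nt, and of those of long-exon transcripts 9.85%, so the ratios to that background were 3.29 and 3.09. Within 200 nt of the stop codon 21.0% and 16.8% of positions had it, and 10.7% in the short-exon transcripts without a peak. AGACU lay near 26.3% of members (ratio 2.69), GGACA near 27.4% (1.75) and GGACC near 30.5% (1.69), while the lowest ratios were those of AGACC (7 of 95, 7.37%, 3.61 to 14.4%, ratio 0.525) and AAACA (4 of 95, 4.21%, 1.65 to 10.3%, ratio 0.487), whose intervals included the background of 14.03% and 8.64%. Their ratios were 0.862 and 0.929 over the 314 members matched by span within 200 nt. In that match the GGACU ratios were 2.79 for members and 2.91 for long-exon peaks, the other order. GGACA was the commonest pentamer near the 220 long-exon peaks (35.5%, ratio 2.92), a higher share than near members. In the wider match it lay near 30.3% of members and 31.0% of long-exon peaks. Members with GGACU had a median score of 3.12 and those without 2.91, a difference of 0.210 whose interval included 0 (-0.433 to 1.06). GC content within 50 nt of the peak was 57.4% at the median for members and 55.4% for long-exon peaks (difference 1.98 points, -0.820 to 4.78). In the matches by span within 10 nt and within 200 nt the difference was 2.97 points (0.756 to 5.18), an interval that excluded 0.

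**Figure D5:**
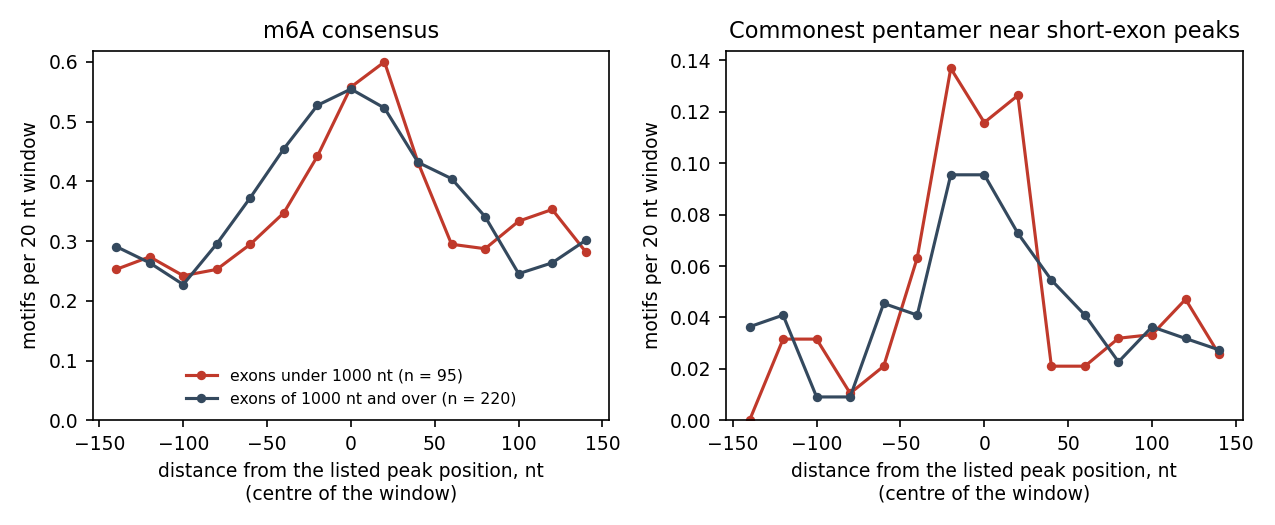
Motifs per 20 nt window (vertical axes) by distance of the window's centre from the listed peak position (horizontal axes, nt) for the m6A consensus RRACH (left) and its commonest pentamer near members, GGACU (right), in 95 members and 220 long-exon peaks. Both curves are highest within about 50 nt of the peak, where the members' consensus curve reaches 0.600 against 0.253 in the window farthest upstream.

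Gene families were counted against the share of all 15273 coding transcripts above the lowest expression value that had a member, which was 7.29% (1113 transcripts). For a long-exon stop codon peak that share was 14.4%, and for any peak 45.8%. Of the 28 lists, 4 had an interval above 7.29%, namely mitochondrial ribosomal proteins, aminoacyl-tRNA synthetases, DEAD and DEAH box helicases and genes of the prefix EIF, and 1, the zinc finger genes, had an interval below it. Mitochondrial ribosomal proteins had a member in 20 of 75 transcripts (26.7%, 18.0 to 37.6%) and a long-exon peak in 3. MRPS15 scored 5.69 in an exon of 165 nt, MRPL12 3.81, MRPL32 3.79 and MRPS26 3.43, and the list's median expression quantile was 0.911. Aminoacyl-tRNA synthetases, which charge tRNAs, had one in 9 of 37 (24.3%, 13.4 to 40.1%), led by the histidyl enzymes HARS2 (5.81) and HARS (5.53), close paralogs whose reads the counting could have shared. CARS, the cysteinyl enzyme, scored 5.61 in an exon of 320 nt and AARS, the alanyl enzyme, 4.68. The 9 synthetase members' median score was 4.67, against 3.32 for all members.

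DEAD and DEAH box helicases, which remodel RNA, had a member in 12 of 53 transcripts (22.6%, 13.5 to 35.5%), among them DHX36, which unwinds G-quadruplexes (5.53), the splicing factor DHX8 (5.29), DDX56 (5.09) and DDX55 (4.53). Genes of the prefix EIF, mostly translation initiation factors, had one in 9 of 58 (15.5%, 8.38 to 26.9%). The scaffold EIF4G1 scored 5.49 and EIF3B 3.89, and the prefix also took in EIF2C2 and EIF4ENIF1 (5.22), which are not initiation factors. Without the EIF2C, EIF2AK, EIF4EBP and EIF4ENIF genes, a choice made after the values were seen, the count was 7 of 46 (15.2%, 7.57 to 28.2%), with a lower bound close to the background. The proteasome had a member in 5 of 38 (13.2%, 5.75 to 27.3%), with PSMD2 at 3.90 and PSMD13 at 3.59. Among 9 transcripts of the MCM prefix, MCM2 and MCM5 (5.14, exon of 349 nt) had one. The interval of the proteasome and MCM shares included 7.29%.

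Other large families stood near or below the background. Solute carriers had a member in 20 of 264 transcripts (7.58%), led by the fatty acid transporter SLC27A4 (5.11), TMEM genes in 16 of 178 (8.99%), led by TMEM136 (5.57), and RAB GTPases in 5 of 65 (7.69%), led by RAB30 (4.11). Zinc finger genes of the ZNF prefix had one in 13 of 434 (3.00%, 1.76 to 5.06%) but a long-exon stop codon peak in 77 (17.7%), at a median expression quantile of 0.567. ZNF821 scored 4.57 in an exon of 988 nt and ZNF593 4.42. Cytosolic ribosomal proteins, at a median quantile of 0.992, had a member only in RPL13 (4.26) and RPS3 (2.20), 2 of 84 (2.38%, 0.655 to 8.27%), and no long-exon peak. The respiratory chain had one in 4 of 90 (4.44%), with UQCRFS1 highest at 3.05. Forkhead and SOX factors had one in 1 of 54 (FOXF2, 2.61) and a long-exon peak in 15. Integrins, laminins and collagens had a single member, in COL7A1, the collagen of anchoring fibrils (2.62, exon 118 of 350 nt). Apart from the zinc finger genes, the intervals of these lists included 7.29%. So did those of the tubulin prefixes (3 of 24, led by TUBG1 at 3.45, a near copy of TUBG2), ubiquitin-specific proteases (4 of 48, USP4 at 4.60), HOX genes (3 of 36, HOXC11), F-box adaptors (5 of 61, FBXL15) and TRIM genes (4 of 50, TRIM21 at 3.90). The same held for cyclins (2 of 27, CCNO at 5.34), KLF factors (1 of 15, KLF2 at 4.16), CCDC genes (8 of 123, CCDC88A at 5.11), RNF genes (4 of 69, RNF115 at 5.16), chaperones (4 of 75, HSPA4 at 4.38) and kinesins (2 of 39, KIF20A at 4.07).

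Immediate early genes, which respond to growth signals within minutes, had a member in 1 of 16 transcripts, IER3 (3.05), a share of 6.25% (1.11 to 28.3%). A long-exon stop codon peak was present in 11 (68.8%). Of 13 cell surface receptors 1 had a member (7.69%, 1.37 to 33.3%), ERBB2, the HER2 receptor tyrosine kinase (3.91, exon 27 of 974 nt), and 7 had a long-exon peak. The m6A machinery had a member in 0 of 20 transcripts, which allows a share of up to 15.0%. Of these, 3 had a long-exon stop codon peak and 16 had some peak. The intervals of all these lists included the background of 7.29%, so none of them is set apart from it. All lists were described by counts alone, and their differences in exon length, expression and transcript length were not separated.

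The kit described in the labels does not mark strand, so reads of a gene and an overlapping antisense partner cannot be told apart. The 3' end lay inside a listed transcript of the opposite strand for 110 of 1113 member transcripts (9.88%) and 171 of 2203 with a long-exon stop codon peak (7.76%), a difference of 2.12 points (0.111 to 4.28).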

How the data were processed

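m6A was mapped in 4 immunoprecipitated and 3 input libraries, assigned by title. Poly(A) RNA was fragmented to about 100 nt and precipitated with an anti-m6A antibody, per the labels' protocols. The aligner, peak caller, build and annotation behind the table are not given in the sources used. The deposited expression quantile is a fraction that ranks transcripts, per the file headers and the values. The peak score is the authors' own, on an unstated scale, and was used only to rank and describe peaks. Other deposited columns give position, exon number, exon length and segment, and no column belongs to a single library.

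The members and lists were chosen with earlier results of these data known. Transcripts were matched to GENCODE 29 by symbol (current or older), strand, chromosome and exact span, and those with peaks also by exon number and length. Of 2952 matches, 665 had peaks and 653 of these a complete coding sequence. Since 0 matched starts equalled GRCh38, the table's build is a different one, and only transcript structures and sequences were taken from GENCODE. Shares have Wilson and their differences Newcombe's 95% intervals. Medians have exact binomial (order statistic) intervals, and their differences combine these as Newcombe's do. No test was run. Interval and position code was checked on simulated data. Python 3.11.15, pandas 2.3.3, numpy 2.4.6, scipy 1.17.1 and matplotlib 3.10.9 were used.

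Named genes are the 15 top scores, the 6 transcripts with 2 members by summed score, the 5 shortest exons, 3 genes on either side of the limit and up to 4 per list. Single exceptions and peaks in exon 1 were added after their values were seen. A few genes that fall under these rules are not reported here.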

Additional observations from a re-analysis of the deposited data

How the results depend on the processing

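Across 10 results and 34 alternatives, 25 values stayed within the reported interval and 9 moved beyond it. Direction could change only for the differences between short and long exons, and 0 of those changed sign. The other results were shares, which have no direction to change. The share of stop codon peaks in short exons was 30.8% among scores above the median of all peaks, 53.3% above an expression quantile of 0.9 and 11.4% with a limit of 500 nt. The score difference was -0.410 with a limit of 500 nt and -0.445 with 2000 nt. RRACH was near 87.4% of members within 25 nt and 100% within 100 nt, and GGACU near 32.6% within 25 nt. All matched members with a score above the median lay in the last exon (100%, 91.8 to 100%). The EIF gene and junction alternatives were added after the data were seen, and the junction difference excluded 0 in both wider matches. A match by span within 200 nt, with positions moved by the difference in span, was also chosen then. With it, 314 members were matched, 71.3% lay downstream of the stop codon, 94.6% in the last exon, and 37.3% had GGACU. The difference in transcripts with a stop codon peak was -8.75 points above a quantile of 0.9, where its interval included 0. The cause of these changes was not tested beyond the construction of each alternative. No paired analysis was possible because no column belongs to a library, and leaving out a replicate was not possible for the same reason. Depth per library is unknown, so weakly expressed transcripts may lack peaks for want of reads. Only 95 of the 1140 members had exact positions.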
